A study of Homo sapiens with 4 samples.

Results

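The EGR, KLF and IER immediate early genes described here are EGR1, EGR2, EGR3, KLF2, KLF4, KLF6, KLF10, IER2, IER3 and IER5. They were found by gene symbol, and these 10 genes stand among 58233 gene identifiers in the deposited counts. RNA was sequenced from MIA PaCa-2 and PANC-1, established human pancreatic cancer cell lines, 24 h after treatment with cannabichromene (CBC), a non-psychoactive constituent of cannabis, or with phosphate-buffered saline (PBS). The question was how CBC changed the transcriptome of each line compared to its own control. There were 4 libraries, 1 per condition, and nothing in the labels names a second culture of any condition.

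The 4 groups were PBS-treated MIA PaCa-2 cells, CBC-treated MIA PaCa-2 cells, PBS-treated PANC-1 cells and CBC-treated PANC-1 cells, all with the genotype given as WT. The concentration chosen for experiments with CBC differed by line, 35 µM in MIA PaCa-2 against 30 µM in PANC-1, whereas the labels of the libraries carry no dose. The labels name the controls PBS and the methods speak of a vehicle control. Each library held 21742775 to 27903667 counts. Below, CPM stands for counts per 1e6 after scaling by the trimmed mean of M-values (TMM), and 3 counts, the limit that a count of 0 allows, correspond to 0.11 to 0.135 CPM. In these bulk samples, fewer cells of one kind and less RNA per cell cannot be told apart. The keratin genes KRT8 and KRT18 were read in all 4 libraries, KRT8 at 276 to 1801 CPM. KRT19 stood at 161 to 744 CPM and VIM at 3249 to 4356 CPM. The epithelial genes EPCAM and CDH1 had at most 1 count in either MIA PaCa-2 library. In PANC-1 EPCAM had 264 counts after PBS and 250 after CBC, and CDH1 had 32 and 131. Of the markers of other cell types, PTPRC, CD3E, PECAM1, DCN and INS had 0 counts in all 4 libraries, ALB, PRSS1 and VWF had at most 2, CD14 had 2 to 123 and CD68 had 1 to 22. The collagen genes COL1A1 and COL1A2, also fibroblast markers, had up to 3037 and 8174 counts.

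Immediate early genes are switched on within minutes of a growth factor, cytokine or stress signal, without new protein synthesis, largely through the RAS-ERK and stress kinase cascades acting on serum response factor (SRF), its ternary complex partners and CREB at their promoters. The EGR and KLF families encode zinc finger transcription factors that bind GC-rich DNA, and the IER genes encode small regulatory proteins. Their transcripts are typically short-lived. All libraries here were taken 24 h after treatment, so an induction within minutes was not measured.

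The promoter stretches of EGR1 and EGR2 are shown first because they carry the CArG box, the element bound by SRF, and the core TGACG of the cAMP response element (CRE core), while the stretches of KLF4, KLF6 and KLF2 carry the GC box GGGCGG. Capitals mark CArG boxes and CRE cores in the first 2 and GC boxes in the last 3, on either strand, so CGTCA and CCGCCC count as well. All were read 5′ to 3′ from the RefSeq promoter sequences of GRCh38.p14 on the strand of the gene. They lie at chr5:138465299-138465478 (EGR1, plus strand), chr10:62816374-62816496 (EGR2, start 3, minus strand), chr9:107489770-107489919 (KLF4, minus strand), chr10:3785282-3785359 (KLF6, minus strand) and chr19:16324676-16324825 (KLF2, plus strand).
EGR1: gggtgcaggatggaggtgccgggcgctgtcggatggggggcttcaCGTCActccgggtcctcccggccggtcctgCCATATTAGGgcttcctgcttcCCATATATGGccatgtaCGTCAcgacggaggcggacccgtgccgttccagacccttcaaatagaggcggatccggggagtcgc
EGR2: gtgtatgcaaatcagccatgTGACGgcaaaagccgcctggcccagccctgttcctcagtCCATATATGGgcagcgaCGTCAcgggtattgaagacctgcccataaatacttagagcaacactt
KLF4: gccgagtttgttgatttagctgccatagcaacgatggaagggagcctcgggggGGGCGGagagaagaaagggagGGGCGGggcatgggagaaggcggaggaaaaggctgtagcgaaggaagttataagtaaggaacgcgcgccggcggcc
KLF6: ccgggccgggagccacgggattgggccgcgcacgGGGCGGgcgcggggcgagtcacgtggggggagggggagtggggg
KLF2: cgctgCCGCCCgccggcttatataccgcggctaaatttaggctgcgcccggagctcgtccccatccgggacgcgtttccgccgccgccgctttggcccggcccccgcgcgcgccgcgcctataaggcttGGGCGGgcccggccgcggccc

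Letters were searched from 250 bases before to 50 bases after each start, in 9 promoters of 7 of the genes and in 35116 promoters in all. Promoters on chromosome 8, where EGR3 and KLF10 lie, were left out of the search and of the 35116. IER3 had no entry in the promoters used. The EGR1 promoter held a CArG box CCATATTAGG that began 105 bases before the start and a CArG box CCATATATGG that began 83 bases before it. CRE cores began 135 and 66 bases before the same start, on either side of the pair of CArG boxes. Start 3 of EGR2 held CCATATATGG, 71 bases before it, between CRE cores at 110 and 54 bases. In what follows the genes are counted once each, and any start of EGR2 sufficed, whereas the percentages are of single promoters, so the shares are not alike. The CArG box was found in 2 of the 7 genes and in 1.29% of all promoters. The CRE core was found in 4 of them (EGR1, EGR2, KLF4 and IER2) and in 24.6% of all promoters. The GC box was found in 5, all but EGR1 and IER5, and in 45% of all promoters. The TATA box, present in 13.7% of all promoters, was found in KLF2 and, 31 bases before the start, in IER5. A consensus site for EGR proteins, held by 5.77% of all promoters, overlapped GC boxes of KLF2 and KLF6. The AP-1 site, held by 4.95%, was in none of the 9. These matches describe letters and say nothing of binding in these cells.

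**Figure D1:**
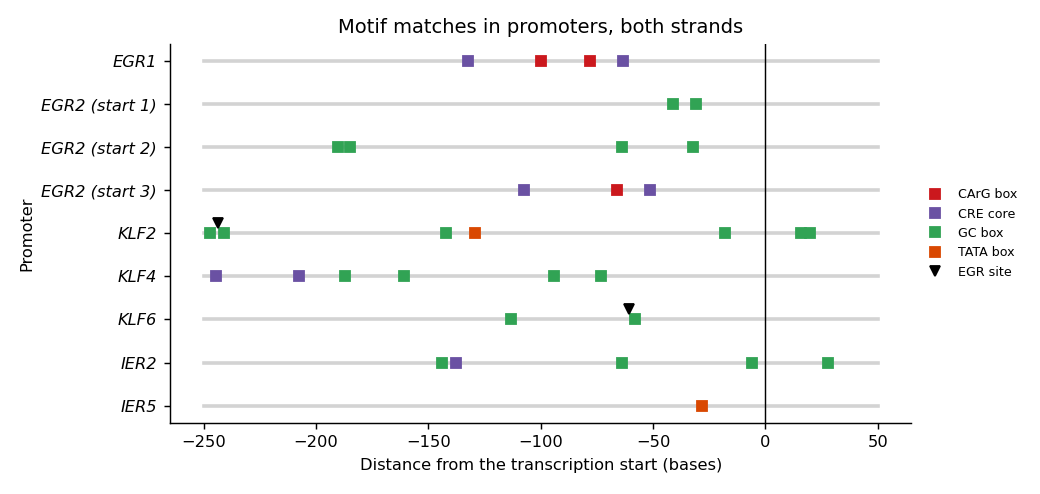
Position of motif matches in the 9 promoters of 7 of the genes, in bases from the transcription start at 0 (x axis), with 1 grey line per promoter and 1 mark per match, coloured by motif. EGR1 and start 3 of EGR2 hold CArG boxes between CRE cores, while GC boxes are spread over KLF2, KLF4, KLF6, IER2 and the other two starts of EGR2.

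CBC treatment of MIA PaCa-2 cells was followed by higher levels of EGR1, EGR3, IER3, KLF4 and KLF6 and by a lower level of KLF2. A gene counted as higher or lower when its log2 fold change, CBC against PBS of the same line, was above 1 or below -1, if either library of the line reached 1 CPM. In MIA PaCa-2 cells, 5 of the 9 genes measured at this level were higher, against 11.5% of all genes tested, and 1 was lower, against 8.97%. EGR3 entered this count through its CBC library alone, which favours a call as higher. With 1 CPM required of both libraries, 4 of 8 genes were higher, against 8.18% of all genes. In PANC-1 cells, 1 of 8 was higher, against 7.71% of all genes tested, and none was lower, against 7.03%. Over the 8 genes with 1 CPM in both libraries, the median log2 fold change for MIA PaCa-2 was 1.35, where that of all such genes was -0.03, and it was 1.78 with EGR3 included. For PANC-1, where the same 8 genes were measured, it was 0.39 and that of all such genes was 0.01. KLF4 was past a 2-fold change in both lines. With 1 library per condition no difference within a line could be tested, and the 95% intervals given below are Clopper-Pearson intervals, from the exact binomial distribution of both counts, and cover counting error only.

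The lines were the only replication of CBC treatment. A quasi-likelihood test in edgeR over all 4 libraries, with the cell line as a block and 1 residual degree of freedom, kept 9 of the 10 genes among 16381 and called 2 of them. KLF4 and KLF6 rose, against 1.91% of all genes that rose, and none fell, against 2.11% that fell. Without the block 0 genes of the 9 were called, 1 of them with an unadjusted p under 0.05, and of all genes 0 were called. Without a filter on low counts 4 were called, EGR1 and IER3 besides KLF4 and KLF6, while the calls over all genes went from 659 to 2063. An unadjusted p under 0.05 was reached by 5 of the 9 and by 20.7% of all genes fitted. Whether the effect of CBC differed between the lines could not be tested, since that term leaves no residual degree of freedom, and the concentrations differed as well.

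**Figure D2:**
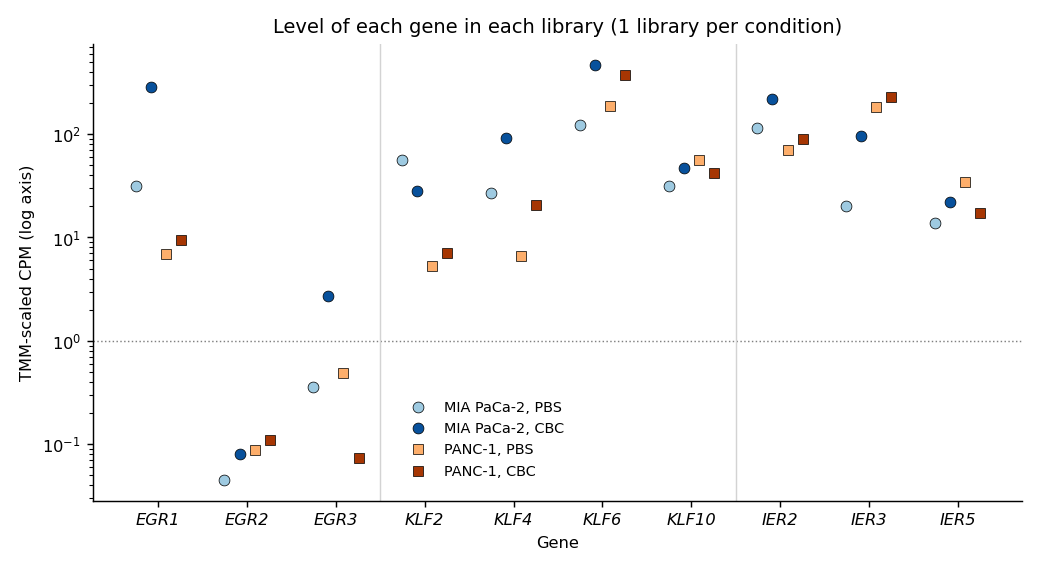
TMM-scaled CPM of each gene in each of the 4 libraries (log axis, 1 point per library, no error bars because each condition had 1 library), with a dotted line at 1 CPM. EGR1 reaches 288 CPM in CBC-treated MIA PaCa-2 cells and stays under 10 CPM in PANC-1, and all EGR2 points lie at or under 0.11 CPM.

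EGR1 (ENSG00000120738, chr5:138465479-138469303, plus strand) encodes the zinc finger factor that couples growth and stress signals to transcription. It had 701 counts (31.5 CPM) in PBS-treated and 7116 counts (288 CPM) in CBC-treated MIA PaCa-2 cells, and 158 counts (6.95 CPM) and 258 counts (9.44 CPM) in the corresponding PANC-1 cells. The CBC-treated MIA PaCa-2 library was far above the other three, and both PANC-1 libraries were below both MIA PaCa-2 libraries. The ratio after CBC was 9.13 in MIA PaCa-2 (95% interval 8.44 to 9.88), or a log2 fold change of 3.19. In PANC-1 cells the log2 fold change was 0.44 (interval 0.15 to 0.74). Over both lines the log2 fold change was 1.89 ± 0.61 (SE), which missed the threshold (edgeR quasi-likelihood test, Benjamini-Hochberg adjusted p = 0.143).

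EGR3, a related factor induced downstream of calcium and antigen receptor signals, was read at low depth. Its counts were 8 and 67 in PBS- and CBC-treated MIA PaCa-2 cells and 11 and 2 in PANC-1. The CBC-treated MIA PaCa-2 library was again the highest, at 2.71 CPM, and the other three were under 1 CPM. The ratio in MIA PaCa-2 was 7.53 with an interval from 3.61 to 18.2. In PANC-1 cells the gene did not reach 1 CPM, and its ratio of 0.151, with an interval from 0.0163 to 0.693, rests on these few counts. Over both lines the log2 fold change of 0.81 ± 1.26 (SE) was not called (edgeR adjusted p = 0.767). EGR2, the factor known from myelination and hindbrain patterning, had 1, 2, 2 and 3 counts in the 4 libraries, at or under the limit of 3 counts, so no fold change is given. EGR2 was thus not detectable above that limit at this depth.

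KLF4 (ENSG00000136826, chr9:107484852-107490482, minus strand) encodes a factor of epithelial differentiation and of reprogramming to pluripotency. It had 597 counts (26.9 CPM) and 2281 counts (92.2 CPM) in PBS- and CBC-treated MIA PaCa-2 cells, and 150 counts (6.60 CPM) and 558 counts (20.4 CPM) in PANC-1. Each CBC library was above its own control, and the PANC-1 libraries stayed below those of MIA PaCa-2 cells. The log2 fold change was 1.78 in MIA PaCa-2 (interval 1.65 to 1.91) and 1.62 in PANC-1 (interval 1.37 to 1.90), so the counting intervals of the lines overlapped. Over both lines KLF4 rose by 1.71 ± 0.24 (SE) on the log2 scale, with an adjusted p of 0.0204 in edgeR.

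KLF6 (ENSG00000067082, chr10:3775996-3785281, minus strand), a broadly expressed factor described as a tumor suppressor, had the highest level per length of the 4 KLF genes in 3 libraries and stood level with KLF2 in the MIA PaCa-2 control. Its counts were 2729 (123 CPM) and 11603 (469 CPM) in PBS- and CBC-treated MIA PaCa-2 cells, and 4280 (188 CPM) and 10256 (375 CPM) in PANC-1. Both CBC libraries were above both PBS libraries. The log2 fold change was 1.93 in MIA PaCa-2 (95% interval 1.874 to 1.995) and 0.99 in PANC-1, just inside the threshold, with an interval from 0.94 to 1.05 and a value of 1.06 when library totals replaced TMM. Over both lines KLF6 rose by 1.47 ± 0.26 (SE) on the log2 scale (edgeR adjusted p = 0.0316).

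KLF2 (ENSG00000127528, chr19:16324826-16328685, plus strand) encodes a factor known for the quiescence of endothelium and T cells. It was lower after CBC in MIA PaCa-2, at 1261 counts (56.7 CPM) with PBS and 697 counts (28.2 CPM) with CBC, and stood at 121 counts (5.32 CPM) and 193 counts (7.06 CPM) in PANC-1. KLF2 was the only one of the 10 genes whose value in CBC-treated MIA PaCa-2 cells was below that of the control. The log2 fold change of -1.01 lay at the threshold, with an interval from -1.14 to -0.87, and it was -0.94 when library totals replaced TMM. In PANC-1 it was 0.40 (interval 0.07 to 0.75). KLF10, the factor first described as induced by TGF-β, stayed within a 2-fold change in both lines. It had 31.3 and 46.6 CPM in PBS- and CBC-treated MIA PaCa-2 cells and 56.5 and 42.3 CPM in PANC-1, with log2 fold changes of 0.57 and -0.42. Neither KLF2 nor KLF10 passed the test over both lines, with adjusted p of 0.665 and 0.915 in edgeR.

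IER3 (ENSG00000137331, chr6:30743199-30744548, minus strand) encodes a stress-inducible regulator of survival and NF-κB signaling. It had 450 counts (20.2 CPM) and 2384 counts (96.4 CPM) in PBS- and CBC-treated MIA PaCa-2 cells, and 4122 counts (181 CPM) and 6298 counts (231 CPM) in PANC-1. Even the CBC-treated MIA PaCa-2 library stayed below both PANC-1 libraries. The log2 fold change was 2.25 in MIA PaCa-2 (interval 2.11 to 2.40) and 0.35 in PANC-1 (interval 0.29 to 0.40). Over both lines the log2 fold change of 1.28 ± 0.43 (SE) missed the threshold (edgeR adjusted p = 0.151).

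IER2 (ENSG00000160888, chr19:13150411-13154911, plus strand), whose product acts in the nucleus, had 115 and 218 CPM in PBS- and CBC-treated MIA PaCa-2 cells and 69.7 and 90.2 CPM in PANC-1. Its log2 fold changes of 0.92 and 0.37 pointed the same way and both were under the threshold. IER5 (ENSG00000162783, chr1:181088700-181092900, plus strand), known as an activator of the heat shock factor HSF1, had 13.8 and 21.8 CPM in MIA PaCa-2 and 34.4 and 17.4 CPM in PANC-1. Its log2 fold changes were 0.66 in MIA PaCa-2 and -0.98 in PANC-1 (interval -1.15 to -0.82), the lowest of the genes measured in PANC-1, and it was -1.01 in that line with TMM over its own 2 libraries. In edgeR the adjusted p over both lines was 0.16 for IER2 and 0.861 for IER5. The libraries came from a directional kit, but whether the counting used strand is not given in the sources used here, and noncoding genes lie on the other strand of KLF4, IER3, IER2 and EGR3. Of those that have counts here, beside IER3, IER2 and EGR3, the largest count was 15, for IER3-AS1 in the PANC-1 control, where IER3 had 4122. The noncoding genes ENSG00000289987 opposite KLF4 and ENSG00000287296 opposite IER2 have no counts in the table used, so without strand, reads from them could not be told apart from those of KLF4 and IER2.

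**Figure D3:**
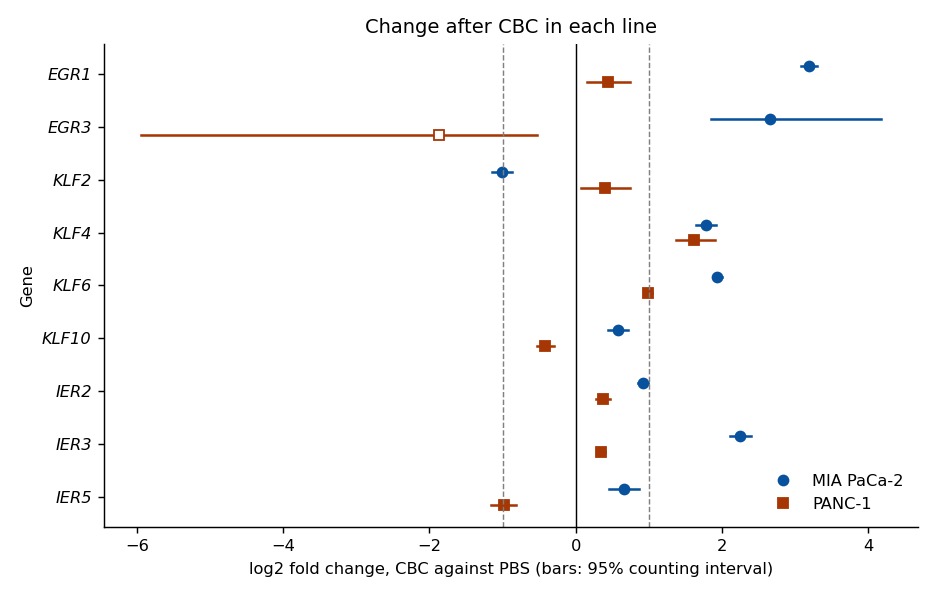
Log2 fold change of 9 of the genes after CBC compared to PBS in each line (x axis), with 95% counting intervals as bars, dashed lines at -1 and 1, and an open mark where neither library reached 1 CPM. EGR2 is left out because it was at or under 3 counts in all libraries. KLF4 lies past 1 in both lines, while EGR1 and IER3 lie past 2 in MIA PaCa-2 and under 0.5 in PANC-1.

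At baseline the 8 genes measured were above 1 CPM in both lines, at different levels. In the PBS libraries IER3 and IER5 were higher in PANC-1, and EGR1, KLF2 and KLF4 were lower. This made 2 higher genes of the 8 measured, where 24% of all genes tested were higher, and 3 lower genes, where 18% of all genes tested were lower, so both shares have to be read against a large background. The median log2 difference, PANC-1 minus MIA PaCa-2, was -0.05 for these genes and 0.10 for all genes.

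IER3 was 8.96 times as high in PANC-1 control cells as in MIA PaCa-2 control cells, with a log2 difference of 3.16 (interval 3.02 to 3.31). After CBC this ratio was 2.39 (interval 2.28 to 2.51). KLF2 was 10.7 times as high in MIA PaCa-2 control cells as in PANC-1 control cells, and 3.99 times (interval 3.40 to 4.70) after CBC. For both genes the lines thus stood closer together after CBC.

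For EGR1 the lines stood further apart after CBC, from 4.54 times as high in MIA PaCa-2 with PBS to 30.5 times (interval 26.9 to 34.6) with CBC. The KLF4 ratio was 4.07 with PBS and 4.52 (interval 4.12 to 4.96) with CBC, in both cases higher in MIA PaCa-2. IER5 was 2.503 times as high in PANC-1 control cells, but 1.26 times as high in MIA PaCa-2 after CBC. KLF6, KLF10 and IER2 differed by less than 2-fold between the control libraries, with log2 differences of 0.62, 0.85 and -0.72. KLF6 and KLF10 were higher in PANC-1 with PBS but stood higher in MIA PaCa-2 after CBC, by 1.25 and 1.10 times. IER2 was higher in MIA PaCa-2 with PBS and, by 2.42 times, after CBC. EGR3, with 8 and 11 counts, did not reach 1 CPM in either control.

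The difference between the lines, averaged over both treatments, was tested in the same edgeR fit with treatment as a block. This average covers unequal gaps for EGR1, KLF2 and IER3. The log2 differences after PBS and after CBC were -2.17 and -4.92 for EGR1, -3.39 and -1.98 for KLF2, and 3.16 and 1.26 for IER3. For IER5, KLF6, KLF10 and EGR3 the difference was positive after PBS and negative after CBC. It was 1.32 and -0.33 for IER5, 0.62 and -0.32 for KLF6, and 0.85 and -0.14 for KLF10. For EGR3, with few counts, it was 0.357 and -4.165. IER3 was higher in PANC-1, by 2.20 ± 0.44 (SE) on the log2 scale (adjusted p = 0.00619), where 26.1% of all genes passed in this direction. EGR1, KLF2, KLF4 and IER2 were lower in PANC-1, where 20% of all genes passed. Their log2 differences were -3.59 ± 0.64 for EGR1 (adjusted p = 0.00386), -2.70 ± 0.39 for KLF2 (adjusted p = 0.00172), -2.10 ± 0.24 for KLF4 (adjusted p = 0.000641) and -0.999 ± 0.225 for IER2 (adjusted p = 0.0102). EGR3, KLF6, KLF10 and IER5 did not pass, with adjusted p between 0.2 and 0.665, although EGR3 passed without a filter on low counts (edgeR adjusted p = 0.0334). Its log2 difference in the main fit was -2.14 ± 1.25 (SE), lower in PANC-1. EGR3 had 8 counts in MIA PaCa-2 and 11 in PANC-1 after PBS, and 67 and 2 after CBC. The gap thus came from the CBC libraries. The line and its culture cannot be told apart here, because each line had 1 library per treatment.

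**Figure D4:**
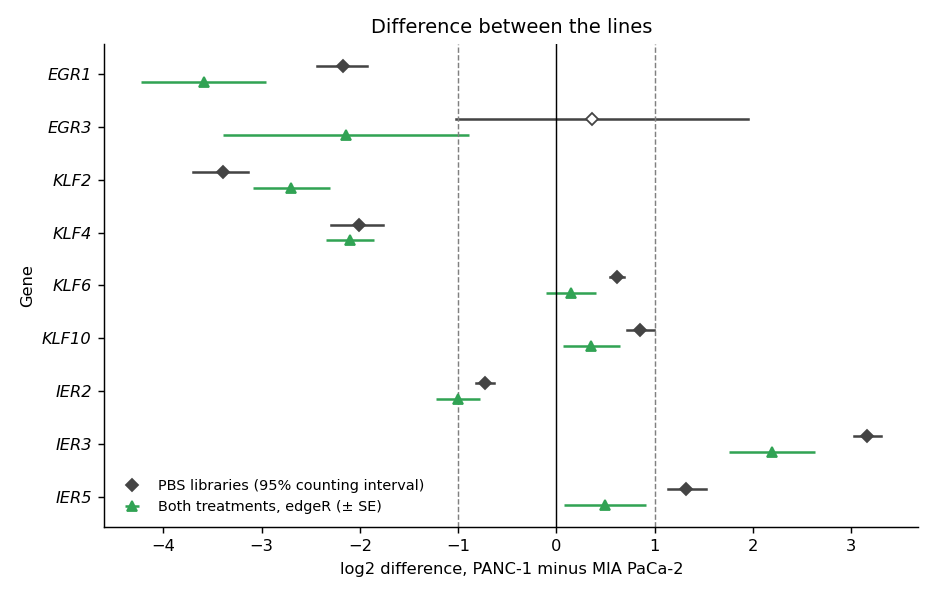
Log2 difference between the lines, PANC-1 minus MIA PaCa-2 (x axis), for 9 of the genes, from the PBS libraries (diamonds, 95% counting interval, open where neither library reached 1 CPM) and from the edgeR fit over both treatments (triangles, ± SE). IER3 lies to the right of 1 and EGR1, KLF2 and KLF4 to the left of -1 in both, while IER5 lies right of 1 only in the PBS libraries.

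The order of the genes within a library was read from counts per kilobase of gene model, scaled to the same total in each library (TPM). In PBS-treated MIA PaCa-2 cells IER2 led with 141 TPM, followed by KLF2 and KLF6, whose levels of 75.8 and 75.4 TPM were close to each other. In CBC-treated MIA PaCa-2 cells EGR1 led with 380 TPM, up from the fifth place, ahead of KLF6 with 316 TPM. IER3 at 296 TPM and IER2 at 293 TPM stood close behind KLF6, and KLF2 went to the seventh place with 41.4 TPM. In PANC-1 cells the first 3 places were the same with and without CBC. IER3 led with 507 TPM after PBS and 730 TPM after CBC, and KLF6 came next with 116 and 262 TPM. IER2 followed with 85.5 and 125 TPM. EGR1 stood in the sixth and seventh places, with 8.37 and 12.9 TPM. With no replicate, neighbours in these orders that lie as close as KLF2 and KLF6 in the MIA PaCa-2 control cannot be ranked.

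For EGR1, IER3 and KLF6, the genes with the most similar pattern over the 4 libraries were sought among the 10067 genes that averaged 10 CPM or more, by the Euclidean distance of log2 CPM after centring each gene on its own mean. For IER3, N4BP2 was at a distance of 0.352 and GCLC, the catalytic subunit of the first enzyme of glutathione synthesis, at 0.407. GCLC had 29.0 and 124 CPM in PBS- and CBC-treated MIA PaCa-2 cells and 176 and 279 CPM in PANC-1. The nearest to KLF6 were SMOX and UAP1L1, both at 0.135, and UFM1 at 0.144, and SMOX, a polyamine oxidase, had 25.3, 100, 35.5 and 74.1 CPM in the same order of libraries. No gene came as close to EGR1, for which PLAUR, the urokinase receptor, was nearest at a distance of 1.14, followed by TNFRSF9 (1.17) and MFSD2A (1.22). PLAUR had 25.3 and 151 CPM in MIA PaCa-2 and 7.34 and 14.7 CPM in PANC-1.

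Among relatives and corepressors of the EGR factors, EGR4 and NAB2 were higher and NAB1 and WT1 lower after CBC in MIA PaCa-2, while none of the 3 genes measured in PANC-1 passed a 2-fold change. EGR4, named here after its values were seen, reached 1 CPM through its CBC library alone and had 11 and 240 counts in MIA PaCa-2 and 1 count in each PANC-1 library. The corepressor NAB2, itself an EGR target, had a log2 fold change of 1.14 for MIA PaCa-2 and 0.17 for PANC-1. Its relative NAB1 had -1.19 and -0.50. WT1, also named after its values were seen, had -2.92 and -0.37. In edgeR over both lines 0 of the 4 genes were called, with an unadjusted p under 0.05 for EGR4, NAB1 and WT1, which 20.7% of all genes fitted had as well. Without EGR4, 1 of 3 was higher and 2 were lower in MIA PaCa-2, with a median of -1.19. With EGR4 the list had a median of -0.03 for MIA PaCa-2 and -0.37 for PANC-1.

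Among 17 other KLF and SP factors, which bind related GC-rich sites, 3 of the 11 measured in MIA PaCa-2 were higher after CBC and none was lower. These were KLF11, KLF13 and KLF15, the last named after its values were seen. In PANC-1 cells 0 of 12 were past a 2-fold change in either direction. KLF13 had log2 fold changes of 1.56 (MIA PaCa-2) and 0.88 (PANC-1) and rose in the edgeR test (adjusted p = 0.0483), the only one of 14 that was called. KLF11 had 1.16 and 0.88 and was not called (adjusted p = 0.0948). SP1, the ubiquitous factor of GC boxes, had -0.78 and -0.24 (adjusted p = 0.25). The median of the list was 0.21 in MIA PaCa-2 and 0.35 in PANC-1.

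Most genes of the upstream cascade stayed within a 2-fold change. Of 18 RAS-ERK and stress kinase genes, the kinase gene RPS6KA2 was higher in both lines, MAPK9 was lower in MIA PaCa-2, and the medians were -0.03 and 0.15. RPS6KA2, named after its values were seen, had 27 and 322 counts in MIA PaCa-2 and 20 and 544 counts in PANC-1, where it reached 1 CPM after CBC alone, and was the only gene of the list called in edgeR (adjusted p = 0.0133). MAPK9, which encodes a JNK kinase, had log2 fold changes of -1.26 and -0.35. The ribosomal S6 kinase gene RPS6KA1 had -0.98 and -0.47, and BRAF had 0.40 and 0.54. Of SRF and its 5 cofactors, MRTFB was past a 2-fold change in MIA PaCa-2, at -1.29 against -0.30 in PANC-1. ELK3 had -0.36 and -0.32 and ELK4 had 0.05 and 0.51. In edgeR 0 of these 6 were called, and 1, MRTFB, had an unadjusted p under 0.05.

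The next list held genes that feed back on ERK signaling or bring about the decay of short-lived mRNA. Of 14 measured in MIA PaCa-2, 8 were higher and 1, SPRY1, was lower, with a median of 1.16. Of 15 measured in PANC-1, DUSP5, DUSP8 and ERRFI1 were higher and DUSP2, which reached 1 CPM in the control alone, was lower, with a median of 0.55. DUSP5, a nuclear phosphatase of ERK, had log2 fold changes of 3.19 (MIA PaCa-2) and 1.95 (PANC-1) (edgeR adjusted p = 0.0187). DUSP8, a phosphatase of stress kinases, had 2.88 and 1.62 (adjusted p = 0.0357), and ERRFI1, a feedback inhibitor of the EGF receptor, had 1.059 and 1.304 (adjusted p = 0.0204). These 3 rose and none of the 15 fitted fell. ZFP36, which binds AU-rich elements of immediate early transcripts, had 3.33 and 0.61 (adjusted p = 0.13). SPRY1, DUSP2 and ERRFI1 were named after their values were seen.

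The AP-1 factors, the other main class of immediate early transcription factors, gave 6 higher genes of 8 in MIA PaCa-2 with a median of 2.17, and 5 of 7 with a median of 1.99 when FOSB, which reached 1 CPM after CBC alone, is left out. In PANC-1 cells ATF3 and JUND were higher, and the median was 0.18. ATF3, a stress-induced factor, had 86 and 3738 counts in MIA PaCa-2 and 89 and 1598 counts in PANC-1. ATF3 rose (edgeR adjusted p = 0.00857), as did JUND, named after its values were seen (adjusted p = 0.0482). JUN had log2 fold changes of 1.99 and 0.45 (adjusted p = 0.114) and JUNB had 2.35 and -0.21 (adjusted p = 0.333). The values of JUN and JUNB were thus high in MIA PaCa-2 and under the threshold in PANC-1, as were those of EGR1 and IER3.

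Of 28 other immediate early genes, 16 of 25 measured in MIA PaCa-2 were higher and 1, ID3, was lower, with a median of 1.22. NR4A1 and ARC reached 1 CPM after CBC alone, and without them 14 of 23 were higher, with a median of 1.21. FOSB, NR4A1 and ARC were named after their values were seen. In PANC-1 cells 3 of 26 were higher (BTG1, MAFF and RHOB) and 6 were lower, with a median of 0.00. The lower genes were CCN2 (log2 fold change -1.80), ID2 (-1.70), PLK2 (-1.21), CCN1 (-1.107), SGK1 (-1.107) and ID1 (-1.015). BTG1, an antiproliferative gene, had 187 and 1109 counts in MIA PaCa-2 and 1795 and 7341 counts in PANC-1, and rose over both lines (edgeR adjusted p = 0.0142). MAFF, a small MAF factor, rose as well (log2 fold changes 2.62 and 1.38, adjusted p = 0.0304). TNFAIP3, a feedback inhibitor of NF-κB, had 3.67 and 0.47 (adjusted p = 0.18). Of 27 genes fitted, GADD45B and RHOB also rose, and ID1 and ID3, which encode inhibitors of basic helix-loop-helix factors, fell. RHOB, GADD45B, ID1, ID2, ID3, CCN1, CCN2, PLK2 and SGK1 were named after their values were seen. These lists have no test of their own. Their counts past a 2-fold change stand beside 11.5% higher and 8.97% lower genes in MIA PaCa-2 and 7.71% and 7.03% in PANC-1. With 1 CPM in both MIA PaCa-2 libraries, 8.18% of all genes were higher and 7.49% lower. The edgeR calls stand beside 1.91% of all genes fitted that rose and 2.11% that fell.

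**Figure D5:**
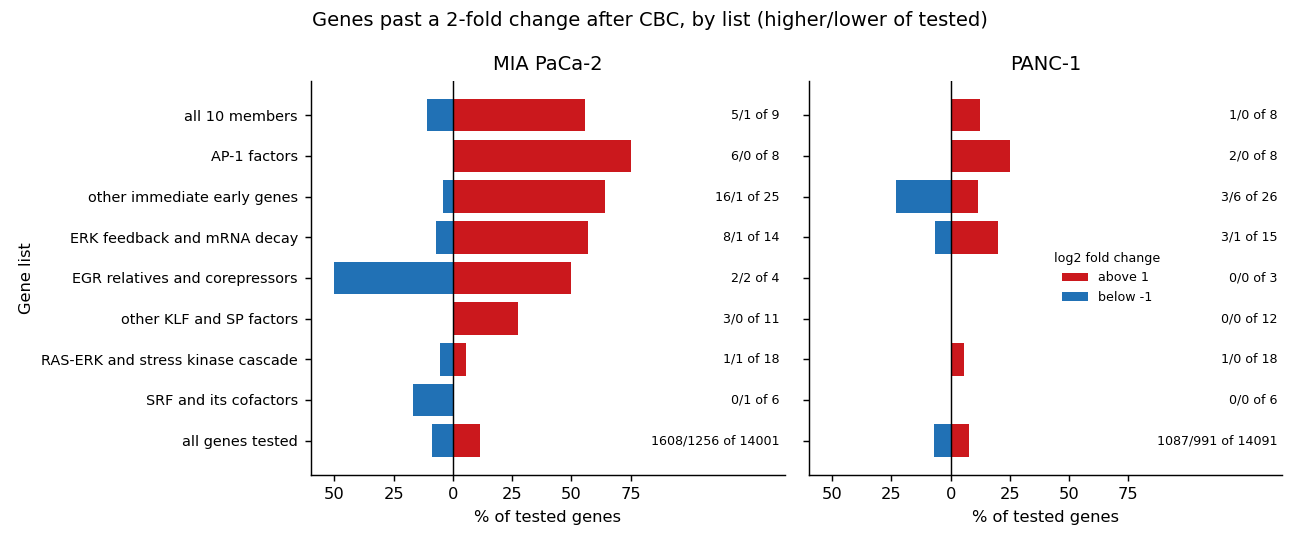
Share of the genes tested in each list that were past a 2-fold change after CBC (x axis, percent, higher to the right in red and lower to the left in blue) in MIA PaCa-2 and PANC-1 cells, with the number higher and lower of the number tested at the right. In MIA PaCa-2 cells the shares higher are 6 of 8 AP-1 factors, 16 of 25 other immediate early genes and 5 of the 9 EGR, KLF and IER genes tested (5 of 7, 14 of 23 and 4 of 8 with 1 CPM in both libraries), and in PANC-1 2 of 8, 3 of 26 and 1 of 8. The shares lower are 0 of 8, 1 of 25 and 1 of 9 in MIA PaCa-2, and 0 of 8, 6 of 26 and 0 of 8 in PANC-1.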

How the data were processed

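Reads of the 4 libraries were trimmed by the authors with cutadapt 2.7, aligned to GRCh38 with STAR and counted per Ensembl gene with HTSeq. Whether counting used strand is not given in the sources used here. The deposited table holds raw counts, and the deposited signal per library is a CPM on TMM-scaled library sizes. That signal was checked against the counts, with a largest relative difference of 6.84e-09, and the counts were used. Of 58233 identifiers, 57392 matched a gene of GENCODE release 44, which gave symbols, positions and lengths.

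Log2 fold changes were computed with edgeR 4.0.16 in R 4.3.3 (TMM over 4 libraries, prior count 2), with no test within a line and a minimum of 1 CPM in either library compared. Called genes were past 1 or -1. The quasi-likelihood test used filterByExpr (minimum count 10, minimum total 15), cell line and treatment as terms, and Benjamini-Hochberg adjustment over all genes fitted, with a threshold of 0.05. The common coefficient of variation of this fit was 22.9%, which is not a spread between replicates. The residual of the fit is the difference between the lines in their response to CBC, given at unlike concentrations. The SE and p-values of the fit rest on that residual. The pairing of CBC with PBS comes from the cell line. The code was tested on simulated data. Alternatives changed the scaling, filter, prior count or pseudocount, block and tool (DESeq2 1.42.0).

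The genes, gene lists and motifs were chosen with earlier results of these data known, so none is independent support. All 10 genes were named, along with up to 3 genes of each of 7 lists, those with the largest absolute mean log2 fold change over the lines at a mean of at least 10 CPM, and the 3 genes nearest in pattern to EGR1, IER3 and KLF6. Genes named outside this rule are marked in the text. One gene that the rule names is not reported here. Enrichment analysis and assays other than sequencing were left out.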

Additional observations from a re-analysis of the deposited data

Results flagged for a closer look

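Genes that reached 1 CPM in a library of each line were compared here. For 3 of them the CBC library was above its control in one line and below it in the other. KLF2 had a log2 fold change of -1.01 for MIA PaCa-2 and 0.40 for PANC-1. For KLF10 the values were 0.57 (MIA PaCa-2) and -0.42 (PANC-1), and for IER5 they were 0.66 (MIA PaCa-2) and -0.98 (PANC-1). The counting intervals of all 6 values lay on their own side of 0. The difference between the lines was not tested, because 1 library per condition leaves no residual degree of freedom for it.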

How the results depend on the processing

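The lower call of KLF2 in MIA PaCa-2 cells was lost, which left 0 lower genes, with library totals in place of TMM, with the deposited CPM and a pseudocount of 1, and when the whole counting interval had to lie past a 2-fold change. With 1 CPM required of both libraries, 4 genes in place of 5 were higher in MIA PaCa-2. In PANC-1 cells 2 genes were higher with library totals, since KLF6 reached 1.06, and 1 gene was lower with TMM over the 2 libraries compared or with DESeq2 size factors (IER5) and without a filter on low counts (EGR3). Library totals shifted the median of all genes by 0.07 in both lines and by -0.13 between the control libraries. The test over both lines called 4 genes without a filter, EGR1 (adjusted p = 3.3e-09) and IER3 (9.85e-06) besides KLF4 and KLF6, and 0 without the cell line as a block, where 1 of the 9 genes had an unadjusted p under 0.05. Over all genes the calls were 659, then 2063 without a filter and 0 without the block (357 with an unadjusted p under 0.05). The test between lines called 2 genes, EGR1 and KLF2, without the treatment block, and KLF6 then changed its sign (adjusted p = 0.949). Without a filter it called 6, with EGR3 gained (edgeR adjusted p = 0.0334), which was lower in PANC-1 only in the CBC libraries. A filter of 1 CPM in 1 library, chosen after seeing the data, left the calls of both tests as they were. The causes were not tested. At the alternative settings, 50 counts of genes stayed within 1.5 times the main count and 10 did not. For single genes, 241 values kept their direction and side of the threshold or moved by less than their counting interval. Another 7 moved further than that interval, 3 gained a call, 5 lost a call and 1 changed its sign. No replicate could be left out, and no paired analysis by replicate number was possible because each group has 1 library. Depth limits EGR2 and EGR3, which had at most 11 counts in the other libraries than CBC-treated MIA PaCa-2 cells.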
